A study of Mus musculus with 109 samples.

Results

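The nuclear factor I (NFI) genes Nfia, Nfib, Nfic and Nfix were followed in 109 single cells of a granule cell progenitor preparation from postnatal day 7 (P7) mouse cerebella. They were taken by symbol, and all 4 were among the 15973 genes of the count table. The animals were C57BL/6 and carried no stated treatment or mutation. Cells were enriched on a Percoll density gradient, captured on C1 Fluidigm chips and turned into 1 Smart-seq library each. The sample labels fall into 6 library groups of 18 or 19 cells, and nothing in them says that these groups came from separate animals, so p-values measure only the spread between library groups, which may be technical.

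NFI proteins bind DNA as homodimers or heterodimers and share a conserved DNA-binding domain at the N terminus, while the C-terminal part differs more between members. In the cerebellum they are known for regulating genes of granule neuron maturation, such as those for migration, axon growth and dendrite formation. Elsewhere in the brain they are known for the onset of gliogenesis and for limiting the self-renewal of neural progenitors. Mki67, which encodes a nuclear protein of cycling cells, was used to mark proliferating cells. Dcx, which encodes the microtubule-associated protein doublecortin of migrating neurons, was used to mark cells that had begun to differentiate.

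The coding stretch in which the 4 genes are most alike is shown because it is where reads of one member most resemble those of another. In the GENCODE annotation of mm10 (GRCm38), the most alike 60-base coding window had 48 bases in common to all 4 genes and lay in exon 2 of each, within the part that encodes the DNA-binding domain. Capitals mark the bases identical in all 4, and each is given 5′ to 3′ on the coding strand.
Nfia: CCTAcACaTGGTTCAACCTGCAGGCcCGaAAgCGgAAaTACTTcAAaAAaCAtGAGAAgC
Nfib: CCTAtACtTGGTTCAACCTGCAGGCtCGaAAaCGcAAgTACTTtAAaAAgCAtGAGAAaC
Nfic: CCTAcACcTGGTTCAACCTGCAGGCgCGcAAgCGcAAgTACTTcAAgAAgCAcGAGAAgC
Nfix: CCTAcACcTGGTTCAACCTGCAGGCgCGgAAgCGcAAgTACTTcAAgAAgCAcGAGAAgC
These windows are chr4:97783134-97783193 on the plus strand for Nfia, and chr4:82498658-82498717, chr10:81420687-81420746 and chr8:84772204-84772263 on the minus strand for Nfib, Nfic and Nfix. Over the whole coding sequences, aligned identity ran from 70.8% for Nfia and Nfib to 74.9% for Nfic and Nfix. The longest run shared by 2 members was 32 bases, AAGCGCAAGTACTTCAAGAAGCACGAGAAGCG, in Nfic and Nfix, and in the other pairs it was 17 to 21 bases. The read length is not given in the sources used here.

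Nfia spans chr4:97772734-98118874 on the plus strand, and Nfib spans chr4:82290173-82705750 on the minus strand of the same chromosome. Nfic spans chr10:81396186-81455635 and Nfix spans chr8:84699876-84800344, both on the minus strand. The strand setting of the counting step is not given in the sources used here, so reads of a gene and of an antisense partner cannot be told apart. Exons of Nfib shared no base with those of another gene. Those of Nfia shared 4 bases with E130114P18Rik, those of Nfic 72 bases with Gm16104, and those of Nfix 4 bases with Lyl1 and 137 bases with G430095P16Rik, all on the opposite strand.

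Total counts per cell ran from 15071 to 8616017 with a median of 3604792, and the cell with the lowest total was the only one under 1110182. In 2 other cells 13533 and 12684 genes were detected, against a median of 4312. Levels are given as CPM, a cell's counts scaled to a total of 1000000. With limits of 100 and 10 CPM, 32 cells were Mki67-high, 75 were Mki67-low and 2 lay between the limits, and 83 cells were Dcx-high, 9 were Dcx-low and 17 lay between. Genes of other cell types marked 17 cells, in which at least 3 of 8 astroglial markers (9 cells), at least 3 of 7 oligodendrocyte lineage markers (6 cells, of which 5 were also among the astroglial ones) or at least 2 of 4 GABAergic interneuron markers (8 cells, of which 1 was also astroglial) reached 50 CPM. Of the other 92 cells, 70 had at least 3 of the 5 granule lineage markers Zic1, Zic2, Barhl1, Pax6 and Neurod1 at that level. The edgeR fits and the sign-flip tests of log2 levels were also computed without the 17 cells.

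Nfib and Nfia were abundant in nearly every cell, Nfix was intermediate and variable, and Nfic was found in a part of the cells. Nfib ranged from 82.0 to 23243 CPM with a median of 8434 CPM, and Nfia from 90.8 to 14613 CPM with a median of 3455 CPM. Both had counts in 109 of 109 cells and reached 100 CPM in 108. Ranked within each cell, Nfib had a median rank of 69 among all genes and was in the top 100 in 71 cells, while Nfia had a median rank of 175 and was in the top 100 in 31 cells.

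Nfix also had a count in all 109 cells, but its level ran from 0.659 to 1880 CPM with a median of 173 CPM, and 64 cells reached 100 CPM. Nfic had a median of 0.992 CPM and a highest value of 1053 CPM. It had at least 1 count in 69 cells (63.3%, 95% Wilson interval 53.9 to 71.8), at least 5 counts in 53 cells and at least 10 CPM in 43 cells. Such intervals treat cells as independent draws, although cells share library groups. They leave out errors within a library, and the libraries carry no molecular identifiers. Low counts can also come from neighbouring libraries. For 418 genes with at least 1000 counts in 1 cell and under 100 in every other cell, counts of 1 to 4 were seen in 18.1% of the remaining cells when they shared its library group and in 2.01% when they did not. The part of such counts in the Nfic values was not tested.

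Longer transcripts collect more reads, so levels of different genes were compared per kilobase of exon. The mean level per kilobase over the 6 library groups was 616 ± 90.3 CPM (SD, n = 6) for Nfib, 387 ± 36.9 for Nfia, 53.5 ± 12.2 for Nfix and 10.8 ± 8.63 for Nfic. Among 14596 genes with a length these were ranks 27, 41, 745 and 4349. The order Nfib, Nfia, Nfix, Nfic held in 6 of 6 library groups for each neighbouring pair, with ratios of 1.59, 7.24 and 4.93 (p = 0.03125 each by an exact sign-flip test, two-sided, for which 6 groups allow no smaller p). Nfic varied most between library groups, from 2.66 to 26.4 CPM per kilobase, whereas Nfia varied from 336 to 429.

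**Figure D1:**
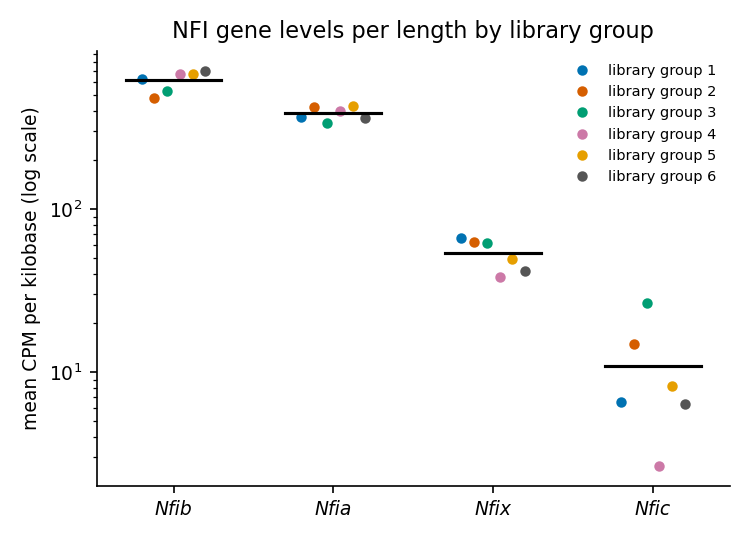
Mean level of each NFI gene per kilobase of exon (CPM per kilobase, log scale) in the 6 library groups (coloured points) with their mean (line). The points of Nfib (mean 616) and Nfia (387) lie close together, those of Nfix lie lower (53.5), and those of Nfic are the lowest and the most spread (10.8, from 2.66 to 26.4).

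The levels of the members were only weakly related to each other from cell to cell. In the 108 cells with at least 1000000 counts, Spearman's rho was 0.12 between Nfia and Nfib, 0.17 between Nfib and Nfix, 0.16 between Nfia and Nfix and 0.16 between Nfic and Nfix. With Nfic, Nfia had a rho below 0.01 in size and Nfib one of -0.05. These cells share library groups and differ in depth, so the values are descriptions only. Nfib exceeded Nfia in CPM in 97 of 109 cells, with a median log2 ratio of 1.13 that ran from -3.47 to 3.83.

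To ask whether the NFI genes differed between proliferating and non-proliferating cells, counts were summed over the Mki67-high and the Mki67-low cells of each library group and compared with edgeR's quasi-likelihood test at the study's threshold, a Benjamini-Hochberg adjusted p under 0.01. None of the 4 NFI genes passed. Of 9084 genes tested, 2 (0.022%) were called, Cdc20 and Tacc3, both genes of mitosis that are named here only because they were the ones called. At an unadjusted p under 0.05 there were 666 genes (7.33%) and again no NFI gene. The median log2 fold change of all tested genes was -0.18, and it became 0.09 with DESeq2's size factors in place of edgeR's TMM factors, so changes are best read against this median.

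Nfia had similar levels in both classes. Its sums were 4218, 5082, 3309, 5726, 5227 and 4511 CPM in the Mki67-high cells of library groups 1 to 6 and 3983, 3910, 5079, 4313, 4834 and 3730 CPM in the Mki67-low cells. The sum was higher in Mki67-high cells in 5 of 6 groups, but the ranges of the classes overlapped. Its log2 fold change (Mki67-high minus Mki67-low) was 0.05 ± 0.25 (SE; edgeR adjusted p = 0.988). The mean difference of log2(CPM + 1) over cells was 0.21, higher in 4 of 6 library groups (exact sign-flip p = 0.3125).

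Nfib had sums of 10387, 7187, 6850, 7207, 7552 and 7170 CPM in the Mki67-high cells of library groups 1 to 6. In the Mki67-low cells of the same groups it had 8993, 7899, 8595, 10169, 12697 and 11370 CPM. The Mki67-high sum was the lower one in 5 of 6 groups, and group 1 was the exception. The log2 fold change was -0.40 ± 0.24 (SE; edgeR adjusted p = 0.729), or -0.06 with DESeq2's size factors and -0.18 without the 17 cells that carried genes of other types. The mean log2 difference was -0.31, lower in 4 of 6 groups (exact sign-flip p = 0.25). A lower level in proliferating cells was therefore not distinguishable from the spread between library groups.

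Nfix had sums of 111 to 495 CPM (median 265) in Mki67-high and 244 to 654 CPM (median 463) in Mki67-low cells, and the ranges overlapped. Its log2 fold change was -0.77 ± 0.54 (SE; edgeR adjusted p = 0.783), and it was -0.19 without the 17 cells. Its mean log2 difference was -0.82, lower in 4 of 6 library groups (exact sign-flip p = 0.15625).

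Nfic was the member with the widest spread. Its sums were 67.5, 5.33, 137, 61.4, 52.8 and 69.6 CPM in the Mki67-high cells of library groups 1 to 6 and 37.0, 108, 81.8, 6.61, 43.5 and 39.7 CPM in the Mki67-low cells. Group 2 was low in Mki67-high and high in Mki67-low cells, and the other 5 groups had more Nfic in Mki67-high cells. The log2 fold change was 0.15 ± 1.11 (SE; edgeR adjusted p = 0.993). Over single cells, where 1 high cell weighs less than in a sum, the mean log2 difference was 1.31, higher in 5 of 6 groups (exact sign-flip p = 0.09375). With log2(CPM + 10) in place of log2(CPM + 1) it was 0.60 (exact sign-flip p = 0.21875). Nfic had a count in 25 of 32 Mki67-high cells (78.1%, Wilson interval 61.2 to 89.0) and in 42 of 75 Mki67-low cells (56.0%, 44.7 to 66.7), and this difference did not pass the test over library groups (exact sign-flip p = 0.21875). After every cell was thinned to 1110182 counts, the shares were 22 of 32 and 35 of 75 cells (exact sign-flip p = 0.15625).

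**Figure D2:**
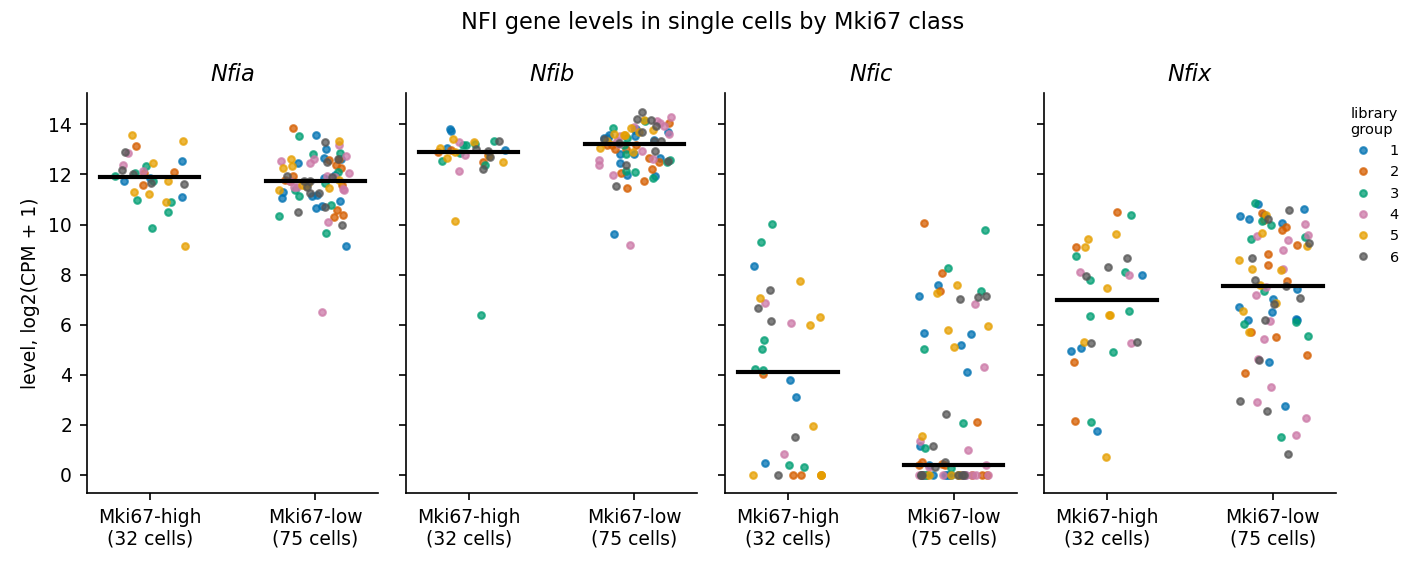
Level of the NFI genes, log2(CPM + 1), in each of 32 Mki67-high and 75 Mki67-low cells, coloured by library group, with the median of each class as a line. Nfia and Nfib form a narrow band near the top in both classes, apart from a few low cells, while Nfix is spread widely, mostly below that band. Many cells have no Nfic count, and the Nfic median is 16.3 CPM in Mki67-high and 0.309 CPM in Mki67-low cells.

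Across Dcx levels the comparison had fewer cells. Dcx-low cells numbered 9, with 1 to 3 in each library group, and 3 of them carried astroglial markers. None of the NFI genes and 0 of 7670 genes (0%) passed the threshold with edgeR, while 1450 genes (18.9%) had an unadjusted p under 0.05 and DESeq2 called 1485 genes, no NFI gene among them. The log2 fold changes (Dcx-high minus Dcx-low) were -0.05 for Nfia, 0.49 for Nfib, -1.14 for Nfic and -0.12 for Nfix, with standard errors of 0.79, 0.63, 1.67 and 1.21. The median of all genes was 0.32, and with DESeq2's size factors it moved to -0.48 and Nfib moved to -0.31. In that setting Nfib kept about the same distance from the median but not its sign. In other settings the distance changed. Nfib had 0.81 beside a median of 1.75 without a filter, and 0.94 beside 0.55 with thinned counts.

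Nfib had a median of 9213 CPM in the 83 Dcx-high cells, 6979 CPM in the 17 cells between the limits and 6077 CPM in the 9 Dcx-low cells. Its mean log2 level was higher in Dcx-high cells in 6 of 6 library groups, by 1.61 ± 1.81 (SD, n = 6; exact sign-flip p = 0.03125), and 9.35% of all genes were likewise higher in every group. Differences in library groups 3 and 4 were 3.51 and 4.29, and those in the other groups were 0.14 to 0.94. The only Dcx-low cell of group 4 had 573 CPM of Nfib, and 1 of the 2 in group 3 had 82.0 CPM. Both of these cells carried at least 3 astroglial and at least 3 oligodendrocyte lineage markers. Without the cells carrying astroglial markers, 4 groups remained with a mean difference of 0.53 and Nfib higher in 4 of 4 (exact sign-flip p = 0.125, the smallest that 4 groups allow). The share of all genes higher in these 4 groups is not given here. In the sums without those cells, edgeR's log2 fold change of Nfib was 0.21, below the median of 1.70 over all genes. The exact sign-flip p-values of Nfia, Nfic and Nfix were 0.21875, 0.375 and 0.53125. Nfix reached 10 CPM in 73 of 83 Dcx-high and 9 of 9 Dcx-low cells, at a minimum chosen after the values were seen. The share was lower in Dcx-high cells in 6 of 6 library groups (exact sign-flip p = 0.03125). At a minimum of 5 counts it was 80 of 83 and 9 of 9 cells (exact sign-flip p = 0.25). All 9 Dcx-low cells reached both minima, so no group could differ the other way and these tests cannot decide whether the share differs.

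Median Dcx was 240 CPM in Mki67-high and 1781 CPM in Mki67-low cells, so the 2 divisions overlap. Mki67-low cells were therefore also divided at this median Dcx level, into 38 cells with higher and 37 with lower Dcx. Here Nfib was higher in the cells with more Dcx. Per cell it had a range of 3449 to 23243 CPM and a median of 11232 CPM with higher Dcx, against 573 to 16816 CPM and a median of 7660 CPM with lower Dcx. Summed counts gave 8787, 9694, 9513, 14365, 15544 and 15114 CPM with higher Dcx in library groups 1 to 6. With lower Dcx they gave 9165, 5354, 6312, 7261, 10686 and 7926 CPM. The sum was higher with higher Dcx in 5 of 6 groups and slightly lower in group 1, and the ranges of both classes overlapped.

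The log2 fold change of Nfib was 0.67 ± 0.21 (SE) with an unadjusted p of 0.00549 and an adjusted p of 0.949 in edgeR's test across 6682 genes, so it did not pass the threshold. The median of all genes was 0.03. No gene passed (0%), 345 genes (5.16%) had an unadjusted p under 0.05, and DESeq2 called 419 genes but no NFI gene. The mean log2 difference of Nfib over cells was 0.70 ± 0.37 (SD, n = 6), and it was positive in 6 of 6 library groups, from 0.27 to 1.27 (exact sign-flip p = 0.03125). By comparison, 1.39% of all genes were higher in every group. This p is the smallest that the design allows, and it was 1 of 12 such tests (4 genes in 3 comparisons) and was not adjusted for their number.

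Markers of other cell types had different summed levels in this division, although none of those tested was called and the ranges overlapped, and their part in the Nfib result was not tested beyond leaving such cells out. GABAergic interneuron markers (Pax2, Gad1, Gad2 and Slc32a1, each with counts in both classes) summed to 0.06 to 1225 CPM with higher Dcx and 0 to 199 CPM with lower Dcx, and 7 of the 8 cells marked by them had higher Dcx. The 8 astroglial markers summed to 298 to 1058 CPM against 68.4 to 5163 CPM, and the 7 oligodendrocyte lineage markers to 5.01 to 999 CPM against 66.3 to 1669 CPM. Without the 9 astroglial cells the mean log2 difference of Nfib was 0.57, still higher in 6 of 6 groups (exact sign-flip p = 0.03125). Without all 17 cells it was 0.52, higher in 5 of 6 groups (exact sign-flip p = 0.0625), and edgeR's log2 fold change was 0.57 ± 0.23 (SE).

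For the other members no test in this division passed its threshold. Nfia had medians of 3439 CPM with higher and 3440 CPM with lower Dcx, with a log2 fold change of 0.18 ± 0.25 (SE; edgeR adjusted p = 0.999) and a higher mean log2 level in 4 of 6 library groups. Nfix had a log2 fold change of 0.21 ± 0.68 (SE; edgeR adjusted p = 0.999), and the differences of its mean log2 level ran from -2.65 in group 2 to 3.51 in group 4. Nfic had the opposite sign. Its sums were 7.41, 0.143, 67.6, 13.97, 29.6 and 0.318 CPM with higher Dcx and 61.9, 261, 117, 1.51, 53.4 and 76.0 CPM with lower Dcx, lower with more Dcx in 5 of 6 groups. Its log2 fold change of -2.23 had a standard error of 1.65 (adjusted p = 0.999 with edgeR), and its mean log2 level was lower in 4 of 6 groups (exact sign-flip p = 0.125). At least 5 Nfic counts were found in 11 of 38 cells with higher and 20 of 37 cells with lower Dcx (exact sign-flip p = 0.1875).

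**Figure D3:**
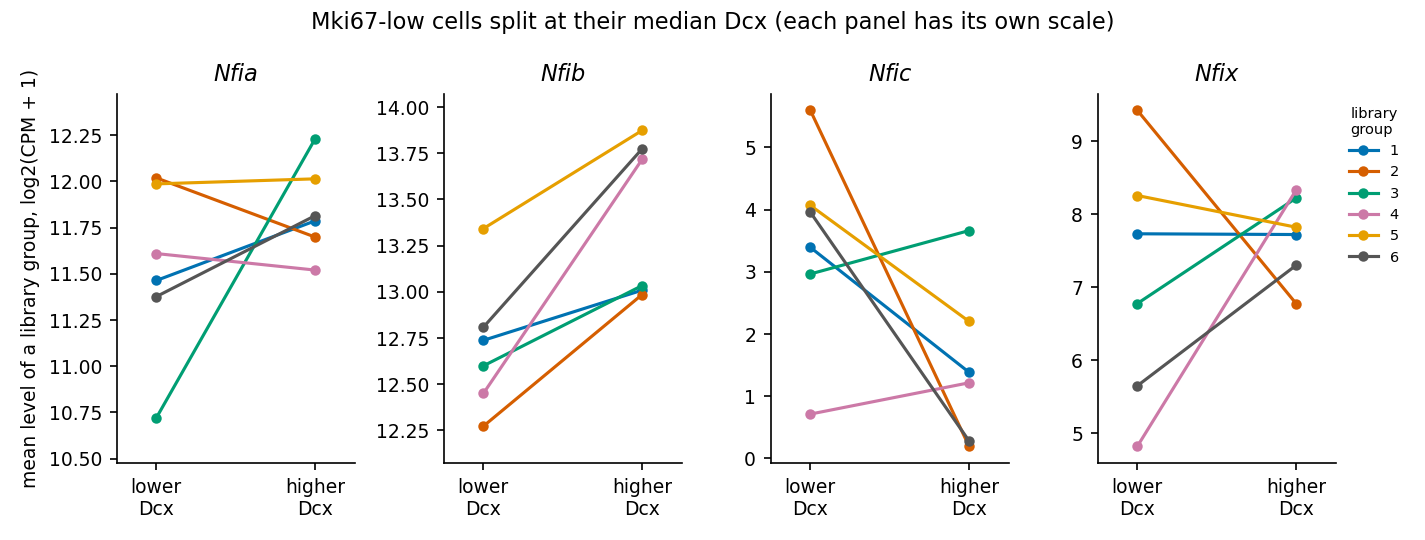
Mean level of each NFI gene, log2(CPM + 1), in the Mki67-low cells with lower and with higher Dcx, with 1 line per library group and a vertical scale of its own in each panel. All 6 Nfib lines go up, by 0.27 to 1.27, whereas those of Nfia, Nfic and Nfix go up in some groups and down in others.

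**Figure D4:**
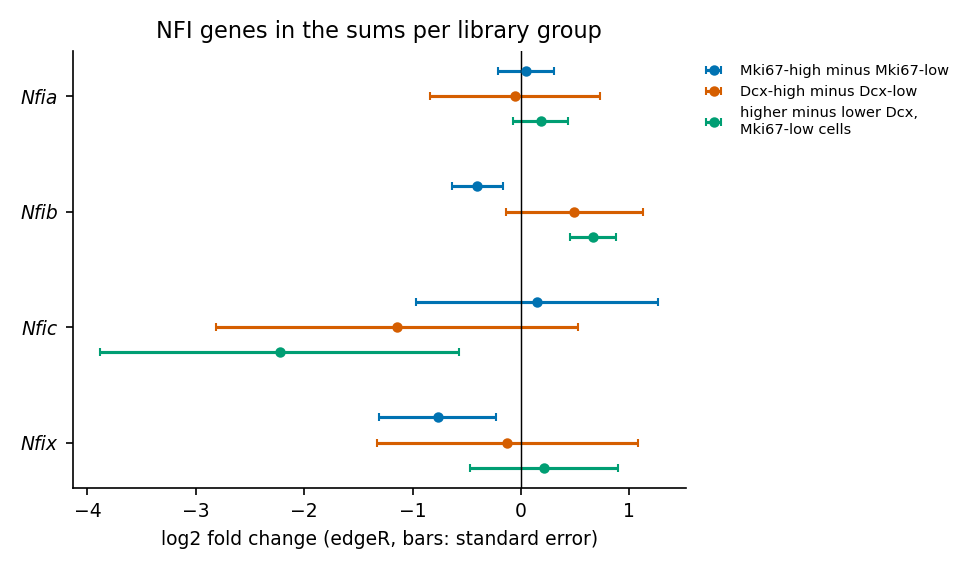
Log2 fold changes of the NFI genes from edgeR on counts summed per library group, with standard errors as bars, for the 3 comparisons. The bars of Nfic are the widest (standard errors 1.11, 1.67 and 1.65), and Nfib in Mki67-low cells divided by Dcx (0.67, standard error 0.21) lies farthest from 0 relative to its error.

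Taken cell by cell over all 108 deep cells, Nfib had a Spearman's rho of 0.36 with Dcx. Within library groups 1 to 6 it was -0.01, 0.57, 0.27, 0.76, 0.50 and 0.58, so group 1 did not share the trend. It was 0.38 in the 75 Mki67-low cells and 0.32 without the astroglial cells. For Nfic, rho was -0.28 with Dcx and 0.27 with Mki67, and it was negative with Dcx in all 6 library groups, from -0.03 to -0.62. Nfia and Nfix had a rho of -0.03 and 0.12 with Dcx and of 0.02 and -0.05 with Mki67.

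**Figure D5:**
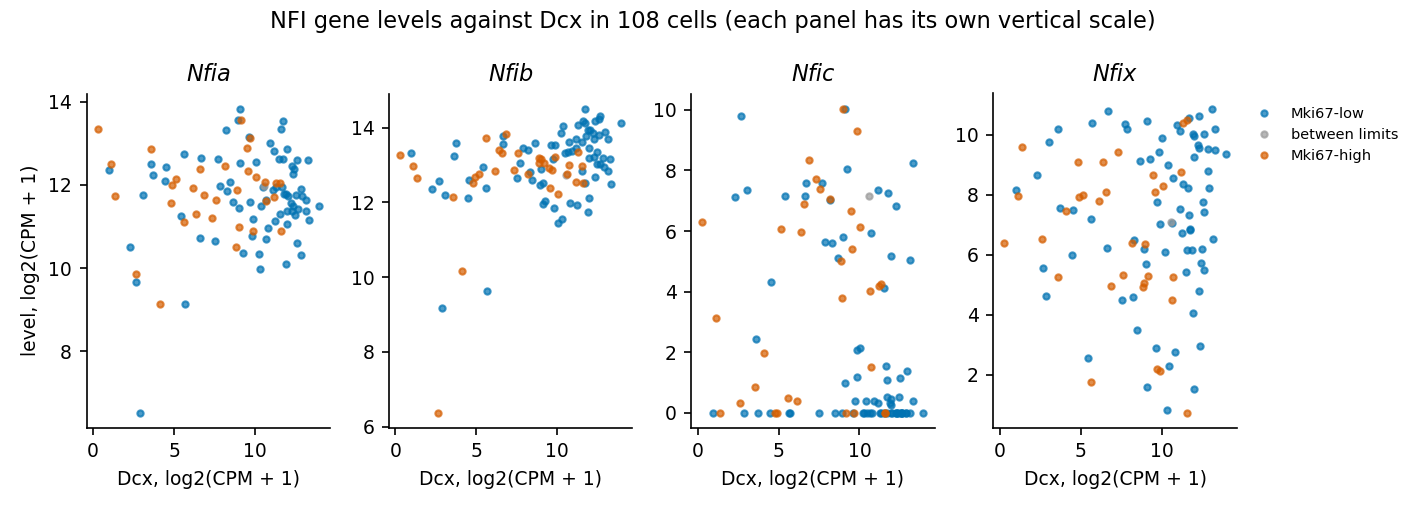
Level of each NFI gene against Dcx, both as log2(CPM + 1), in 108 cells coloured by Mki67 class, with a vertical scale of its own in each panel. Spearman's rho with Dcx is 0.36 for Nfib, -0.03 for Nfia, -0.28 for Nfic and 0.12 for Nfix, and many Mki67-low cells with much Dcx have little or no Nfic.

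The genes with the most similar pattern to each member were looked for among 6586 genes with counts in at least 30 of the 108 cells, by Spearman's rho of CPM. For Nfib, the most similar of all was Dcx itself (0.36), followed by Lpin1 (0.35), which encodes a phosphatidate phosphatase, and Ces1d (0.34), whose mean was only 0.252 CPM. Nfia was most similar to Ilf2 (0.38), Rcor2 (0.37), a corepressor of the CoREST family, and Ddx23 (0.35). Nfic was most similar to Rad54l (0.45), a gene of recombination repair, Stard4 (0.44), which encodes a sterol transfer protein, and AC055772.1 (0.43). For Nfix the most similar genes were Eml5 (0.38), Rab11b (0.37), a GTPase of recycling endosomes, and Asphd2 (0.35). All of these correlations are weak.

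The levels also differed with the markers of other cell types, which is a description of cells picked by those markers. Nfix was high in the 8 cells with GABAergic interneuron markers, at 446 to 1880 CPM with a median of 891 CPM, against a median of 140 CPM in the 92 cells without markers of other types. Nfib in those 8 cells had a median of 11643 CPM, against 9175 CPM in the 92 cells. In the 6 cells with oligodendrocyte lineage markers Nfib was at 82.0 to 5943 CPM with a median of 2786 CPM, below the median of the 92 cells in every case. In the 9 astroglial cells the medians were 5377 CPM for Nfib and 3371 CPM for Nfia, the latter near the 3585 CPM of the 92 cells. No test was made on these groups of 6 to 9 cells.

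A small set of cells had little Nfia or Nfib, with limits of 500 CPM for Nfia and 2000 CPM for Nfib that were chosen after their values were seen. There were 4 such cells. In library group 3, a cell had 82.0 CPM of Nfib and 919 CPM of Nfia, and in library group 4, another had 573 CPM of Nfib and 90.8 CPM of Nfia. Those in library groups 1 and 5 had 797 and 1139 CPM of Nfib and 564 and 559 CPM of Nfia. The cells of groups 1, 3 and 4 carried 3 or 4 of the 7 oligodendrocyte lineage markers and at most 1 of 5 granule lineage markers, but also 2, 4 and 3 of the 5 genes of postmitotic granule cells and 1, 3 and 3 of the 8 astroglial markers. The cell of group 5 carried 3 granule lineage markers, 1 gene of postmitotic granule cells and no glial marker. Their totals of 2388093 to 4429019 counts lay within the usual range, and Dcx was at most 50.5 CPM in each.

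Genes known to act with NFI were described beside the members. Of 5 granule neuron genes known as NFI targets, 4 were tested and Gabra6 was not analysed here. Between Mki67-high and Mki67-low cells none of the 4 was called, all 4 had negative log2 fold changes, and their median was -1.79 against -0.18 for all genes. Of all 9084 genes tested, 4108 had positive ones. Cntn2, which encodes the axonal adhesion molecule TAG-1 of young granule cells, had a log2 fold change of -2.36 ± 0.90 (SE; edgeR adjusted p = 0.587). For Itsn1, which encodes an endocytic scaffold, it was -1.23 ± 1.08 (SE). Cdh2, given here after its values were seen, was near 0 with -0.03 ± 1.21 (SE). Between Dcx-high and the 9 Dcx-low cells, all 4 had positive log2 fold changes, with a median of 3.25 against 0.32 for all genes. None was called there, and 4219 of all 7670 genes tested had positive ones. Within Mki67-low cells 2 of the 4 had positive log2 fold changes, and the median of the 4 was 0.33 against 0.03 for all genes. Ephb1, which encodes an ephrin receptor, had -0.55 ± 1.84 (SE) there, and its mean log2 level was lower with more Dcx in 5 of 6 library groups. Cdh2 had -2.78 ± 1.45 (SE) in the same division. The mean log2 level of Itsn1 was higher with more Dcx in 6 of 6 library groups (2.02, exact sign-flip p = 0.03125), as for 1.39% of all genes, with an edgeR log2 fold change of 1.21 (adjusted p = 0.999).

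Genes known to be lowered by NFI in progenitors included Ezh2, the histone methyltransferase of Polycomb complex 2, and Sox9. Insc, which encodes the spindle orientation protein inscuteable, was placed in the same list, but its lowering by NFI is not established here. None of the 4 genes of this list that were tested, Insc among them, was called in the Mki67 comparison. Their median was -0.37. The mean log2 level of Ezh2 was higher in Mki67-high cells in 6 of 6 library groups, by 3.88 (exact sign-flip p = 0.03125), beside 7.88% of all genes, and its edgeR log2 fold change was 1.10 ± 0.71 (SE; edgeR adjusted p = 0.759). Insc had counts in 4 of 32 Mki67-high and 22 of 75 Mki67-low cells. Of the 5 astroglial genes that depend on NFI elsewhere in the brain, 3 were tested in the Mki67 comparison, none was called, and Fabp7, a fatty acid-binding protein of radial glia, had a log2 fold change of -0.07 ± 1.76 (SE). Among factors that act with or upstream of NFI, Pou3f2 had -0.86 ± 0.87 (SE) and Etv1 had counts in 8 of 32 Mki67-high and 4 of 75 Mki67-low cells.

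For reference, genes of both states followed the Mki67 classes in direction without passing the threshold. All 5 progenitor genes had positive log2 fold changes in Mki67-high cells (median 1.30), among them Ccnd2 with 0.89 ± 0.38 (SE) and Sfrp1 with 1.30 ± 0.62 (SE). All 5 genes of postmitotic granule cells had negative ones (median -1.18), among them Tubb3 with -1.48 ± 0.40 (SE; edgeR adjusted p = 0.371) and Sema6a with -2.11 ± 0.45 (SE; edgeR adjusted p = 0.165). None of the 10 was called, and 4108 of all 9084 tested genes had positive log2 fold changes. Nfia at 0.05 and Nfib at -0.40 were closer to the median of all genes than to either list's median, and so was Nfic at 0.15. Nfix at -0.77 ± 0.54 (SE) was closer to the median of the postmitotic genes. This placement is uncertain, since Nfix was -0.19 without the 17 cells with genes of other types and -0.48 without library group 1. The Dcx classes were followed less closely. Between Dcx-high and Dcx-low cells, 2 of the 5 progenitor and 3 of the 5 postmitotic genes had positive log2 fold changes. Within Mki67-low cells divided by Dcx, 0 of 3 tested progenitor genes and 3 of 5 postmitotic genes were positive. The postmitotic median was 0.12 there, against 0.03 for all genes.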

How the data were processed

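RNA of 109 single cells was measured by Smart-seq, with cells in 6 library groups. The authors aligned reads to mm10 with STAR 2.4.1d and deposited raw HTSeq 0.6.1 counts per gene and cell without normalization. The annotation used for counting is not given in the sources used here. Each column was assigned to its sample by the identifier in the sample title. Every listed gene had a count in at least 3 cells. All cells were kept.

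CPM were computed from column totals. Counts were summed per class and library group, filtered with filterByExpr, normalized by TMM and tested with edgeR 4.0.16 (R 4.3.3), in a design without a block. The gene that defined a class was left out of its test. The spread of the sums was large, with a biological coefficient of variation of 171.5% to 197.3%, which limits what can be detected. Means of log2(CPM + 1) per library group were compared by sign-flip tests, exact and two-sided. The edgeR fit and the sign-flip test were run on simulated data as a check of the code. How often true differences would be found at the spread of these data is not given here. Alternatives were DESeq2 1.42.0, its size factors, no filter, thinned counts, other limits, log2(CPM + 10) and left-out cells or groups. Leaving out cells with genes of other cell types and a minimum of 10 CPM for detection were chosen after seeing the data.

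The members and gene lists were chosen with earlier results of these data known. Genes named are the 4 members, the 3 genes most similar to each, at most 3 genes of each list with values, Mki67 and Dcx; others were chosen after their values were seen. Of the marker and target genes, Gabra6, Apcdd1, Pcp2, Aif1 and Pecam1 were not analysed here.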

Additional observations from a re-analysis of the deposited data

Results flagged for a closer look

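Among the mean log2(CPM + 1) levels of the NFI genes per library group, 28 sets of 6 groups were checked for a group far from the others by Dixon's criterion, and 2 were found. Chance alone flags about 1 in 20. In Mki67-high cells, Nfic in library group 2 had a mean log2 level of 1.01, and the nearest other group had 3.63. In Mki67-high cells, Nfix in library group 1 had 4.94, and the nearest other group had 6.57. Both means rest on 4 cells.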

How the results depend on the processing

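None of the alternatives called an NFI gene in any of the 3 comparisons. The count of all genes called did change. For Mki67 it was 2, and it became 6 at a threshold of 0.05 or with DESeq2's size factors, 376 with DESeq2, 0 to 1 with a library group left out, and 1 without the cells of unusual depth, with astroglial genes or with genes of other types. For Dcx it was 0, and it became 655 at 0.05, 1485 with DESeq2 and 1 without cells with genes of other types. Within Mki67-low cells it was 0, and 419 with DESeq2. The cause was not tested.

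Several log2 fold changes turned sign, while the median of all genes also moved. For Dcx that median was 0.32, and it was -0.48 with DESeq2's size factors, -0.01 with DESeq2, 1.75 without a filter, 0.55 with thinned counts and 5.33 with sums of at least 2 cells. For Mki67, Nfia became -0.025 without a filter. For Dcx, Nfia became 0.26 without a filter and 0.50 with thinned counts, Nfib became -0.31 with DESeq2's size factors and -0.26 with DESeq2, and Nfix became 0.082 without a filter, 0.36 with thinned counts, 0.16 with sums of at least 2 cells and 0.38 with cells divided at the median Dcx. With each library group left out, values ran from -0.0013 to 0.32 (Nfia) and -0.030 to 0.81 (Nfic) for Mki67, from -0.36 to 0.54 (Nfia) and -0.38 to 0.19 (Nfix) for Dcx, and from -0.044 to 0.44 (Nfix) within Mki67-low cells. Other values moved by over 1.5 times without turning sign. Among them were -0.63 to -0.26 (Nfib) and -0.88 to -0.48 (Nfix) for Mki67 and 0.13 to 0.98 (Nfib) for Dcx. The mean log2 difference of Nfix for Mki67 was -1.12 to -0.43. That of Nfic for Mki67 was 1.31, and 0.60 with log2(CPM + 10).

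Sign-flip tests of Nfib with 5 groups cannot go under 0.0625. With a library group left out, its mean log2 difference was 1.08 to 1.91 for Dcx and 0.58 to 0.78 within Mki67-low cells. For Dcx it was 0.53 without astroglial cells and 0.49 without cells with genes of other types. Within Mki67-low cells it was 0.52 without the latter.

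Sums of the same library group share a number, but their deviations correlated by only -0.04 to 0.04. With library group as a block, 0 genes were called for Mki67 and 358 for Dcx, where Nfia had 0.67, Nfib 0.92, Nfic 0.18 and Nfix 0.30 beside a median of 5.36 over all genes. Within Mki67-low cells the block gave Nfib 0.66 (adjusted p = 0.999 with edgeR).

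For Dcx, the share of cells with Nfix differed by -12.5 percentage points at a minimum of 10 CPM, which all 9 Dcx-low cells reached.

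With 6 groups and this spread, differences of the size seen for Nfic and Nfix could not be resolved. The order of levels per kilobase held with the longest transcript as length, with ratios of 2.28, 6.17 and 6.23. Leaving out cells of unusual depth or sums of 1 cell left the sums of Mki67-low cells divided by Dcx as they were.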

Other observations

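The ratio of Nfib to Nfia was examined after the values were seen. The median log2 ratio in single cells was 0.92 in Mki67-high and 1.34 in Mki67-low cells, not corrected for length. The mean per library group was lower in Mki67-high cells by 0.53 on average, in 5 of 6 groups (exact sign-flip p = 0.09375), which does not pass the threshold. Between Mki67-low cells with higher and lower Dcx it differed by 0.38, higher in 4 of 6 groups (exact sign-flip p = 0.375).

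Cells that were both Mki67-high and Dcx-high numbered 19. In them, Nfic had a median of 31.3 CPM and Nfix of 39.1 CPM. In the 13 Mki67-high cells with Dcx under 100 CPM the medians were 0.810 CPM for Nfic and 242 CPM for Nfix. The cells with 13533 and 12684 detected genes were both among the 19. Astroglial markers were carried by 4 of the 19 and by 1 of the 13 cells. These states were set after the values were seen, and the differences in Nfic and Nfix were not tested.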
